A study of Mus musculus with 10 samples.

Results

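Stellate cells and the extracellular matrix were followed through 36 genes in the livers of mice given phenobarbital. The genes were matched to the array by symbol alone, with no measured value in the rule, but the list itself was drawn up with earlier results of these data known. It holds collagens, proteoglycans and other matrix glycoproteins, matrix crosslinking enzymes, matrix proteases and their inhibitors, cytoskeletal genes, and the receptors and secreted signals of mesenchymal cells. The array carries 84 probe sets for them, and 35 of the 36 genes have a probe set annotated to that gene alone, among 18193 such genes in all. RNA came from whole liver of 10 male B6C3F1/Crl mice, the offspring of C57BL/6 males and C3H/He females, 29 to 32 days old on receipt and given 5 days to acclimatise. The phenobarbital group (n = 5) drank water holding 0.05% (w/v) phenobarbital freely for 28 days, and the control group (n = 5) was kept beside it, its water not described further in the labels. No engineered allele is named for either group, each animal has its own array, and the tissue is whole liver, so all of its cell types are mixed. Phenobarbital is a barbiturate that induces drug metabolism in liver and promotes rodent liver tumours without damaging DNA, and the series is a study of DNA hydroxymethylation after its use.

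Hepatic stellate cells lie between the hepatocytes and the sinusoidal endothelium, store vitamin A, and in an uninjured liver stay quiescent. After injury they can become contractile myofibroblasts that secrete fibrillar collagen, a change in which platelet-derived growth factor drives division and transforming growth factor beta drives matrix synthesis. Portal fibroblasts and vascular smooth muscle share many of these genes, and some matrix genes, such as Fn1, are also made by hepatocytes.

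Of the 35 genes, 10 fell with phenobarbital and 0 rose (limma, Benjamini-Hochberg adjusted p under 0.05). The 10 were both platelet-derived growth factor receptors (Pdgfra and Pdgfrb), the secreted proteins Hgf, Reln and Colec11, the matrix proteins Dcn and Tgfbi, the membrane protease Mmp14, the intermediate filament Vim and the crosslinking oxidase Loxl1. On the linear scale they stood at 63.0% to 83.5% of control, so each changed by less than 2-fold. No collagen gene passed in either direction when read from its brightest probe set, as every gene is here. The 10 falls make 28.6% of the 35, which is a description since the list was not chosen blind, and 11.3% of all 18193 genes fell by the same test, while 9.02% rose (20.3% either way). The direction of the 10 held under both other scalings tried: after quantile normalisation 8 members fell (Loxl1 and Vim no longer passed) and 1 (Tagln) rose, where 8.45% of all genes fell, 12.7% rose and 21.1% did either, and after median centring 9 fell (all but Loxl1) and 0 rose, where 8.42% fell, 12.0% rose and 20.4% did either. Probe sets tested singly gave 16 falls and 0 rises among the 82 annotated to 1 member, beside 11.0% lower, 7.7% higher and 18.7% either way over all 45037. The 16 include 1 probe set each of Col5a1 and Timp2, whose brightest probe sets did not pass. With all probe sets of each gene averaged, 6 of the 10 still fell (Loxl1, Mmp14, Vim and Pdgfra did not pass), and with probe sets that match a single transcript 8 did (Vim and Pdgfrb did not). At an unadjusted p under 0.05 the counts were 14 lower and 1 higher, Tagln. Of the 35 means, 26 lay below and 9 above control, and the median log2 fold change was -0.16, beside 0.008 over all genes. In whole liver, fewer cells of a type and less RNA per cell cannot be told apart.

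The arrays formed 2 sets by their poly-A spike-ins, bacterial transcripts added before labelling. The mean log2 value of the 24 spike-in probe sets was 5.76 to 6.58 on the phenobarbital arrays and 6.40 on control replicate 4, against 7.77 to 8.64 on control replicates 1, 2, 3 and 5. The 3′ minus 5′ difference of Actb was 1.19 to 1.33 with phenobarbital and 1.28 to 1.78 in controls (exact two-sided permutation p = 0.0238, 0.0298 after adjustment over 5 array measures), and that of Gapdh was -0.28 to -0.21 with phenobarbital and -0.15 to -0.03 in controls (exact permutation p = 0.00794, the smallest this design allows, 0.0198 adjusted). The hybridisation spike-in mean was 10.54 to 10.74 with phenobarbital and 10.65 to 11.30 in controls (exact permutation p = 0.0317, 0.0317 adjusted). The upper quartile of the array values was 7.30 to 7.36 with phenobarbital and 7.39 to 7.46 in controls (exact permutation p = 0.00794, 0.0198 adjusted). It was 7.41 on control replicate 4, so this measure parted all controls from the treated arrays. With the array set as a block, the comparison is between the 5 treated livers and control replicate 4, and 143 genes passed (0.786%; 0.484% higher and 0.302% lower), against 3692 without it. All 10 genes that fell also lay below 0 in that comparison (-0.63 to -0.09), and so did 32 of all 35 (median -0.27). The 10 were called in a fit that held control replicate 4, so their sign here is a description. Control replicate 4 was also the highest control for 19 of the 35 genes, ties included. The 32 genes share that 1 control liver, so their number is a description too. With the spike-in mean as a covariate instead, all 10 again lay below 0 (-0.58 to -0.10), 129 genes passed, and of the 10 Loxl1 alone did.

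**Figure D1:**
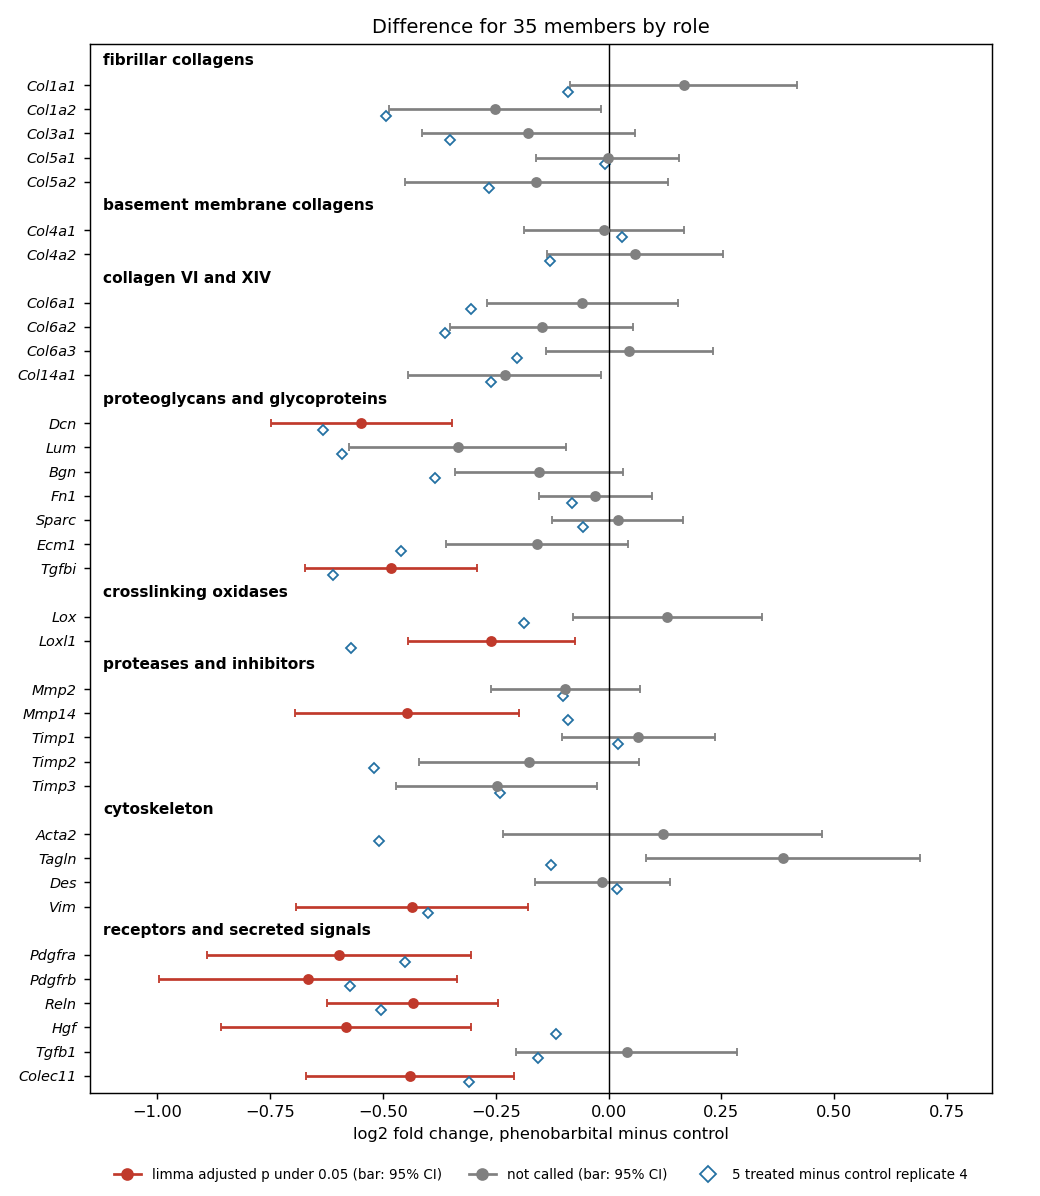
Log2 fold change (phenobarbital minus control, n = 5 each) of the 35 genes, grouped by role. Points are means with 95% confidence intervals from limma, red where the adjusted p is under 0.05, and open diamonds are the 5 treated livers minus control replicate 4; 5 of the 10 red points lie among the receptors and secreted signals, and none among the collagens.

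Of the 10 falls, 5 were among the 6 receptors and secreted signals, with a median log2 fold change of -0.51 over the 6. Pdgfrb, the platelet-derived growth factor receptor through which stellate cells are driven to divide, had log2 values of 6.63, 7.12, 7.56, 6.89 and 6.63 in the phenobarbital livers, against 7.70, 7.65, 7.80, 7.54 and 7.47 in the control livers. Of the treated livers, 4 lay below every control, and replicate 3 alone fell inside the control range. The log2 fold change was -0.67 ± 0.15 (SE; adjusted p = 0.0106), or 63.0% of control, and -0.57 against control replicate 4 (adjusted p = 0.393). Its other probe set stood at -0.23 and did not pass singly (adjusted p = 0.212), and Pdgfrb did not pass with single-transcript probe sets (-0.23, adjusted p = 0.198).

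Pdgfra, the related receptor that marks quiescent stellate cells and fibroblasts, had values of 6.11, 6.40, 6.72, 6.15 and 6.46 with phenobarbital, against 7.19, 6.90, 7.27, 6.82 and 6.65 in controls. Replicate 3 was again the highest treated liver and lay above control replicate 5. Its log2 fold change was -0.60 ± 0.14 (SE; adjusted p = 0.01), but 1 of its 3 probe sets passed when each was tested singly, another stood at 0.24, and their mean gave -0.16 (adjusted p = 0.115). Against control replicate 4 the value was -0.45 (adjusted p = 0.448).

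Hgf encodes hepatocyte growth factor, a mitogen for hepatocytes that stellate cells and endothelium secrete. Its values were 5.38, 5.33, 5.56, 5.42 and 5.53 in treated livers, against 6.40, 6.15, 6.15, 5.56 and 5.87 in controls, so the groups met only at 5.56, the value of treated replicate 3 and of control replicate 4. Over all controls the log2 fold change was -0.58 ± 0.13 (SE; adjusted p = 0.0086), and against control replicate 4, the array that shares the spike-in level of the treated ones, it was -0.12 (adjusted p = 0.805). The other 2 probe sets of Hgf stood at -0.12 and -0.09 and did not pass singly (adjusted p = 0.244 and 0.492), and the mean of the 3 gave -0.26 (adjusted p = 0.00914). Met, the receptor for Hgf, fell too, by 0.46 on the log2 scale (adjusted p = 0.00758).

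Reln, a large secreted glycoprotein known from cortical layering and made in liver by quiescent stellate cells, gave 9.57, 9.61, 10.02, 9.59 and 9.64 with phenobarbital, against 10, 10.15, 10.18, 10.19 and 10.08 in controls. Treated replicate 3 overlapped control replicate 1, and the other 4 treated livers sat within a narrow band below all controls. A log2 fold change of -0.43 ± 0.09 (SE; adjusted p = 0.00574) resulted, and one of -0.50 against control replicate 4 (adjusted p = 0.18). Its other probe set stood at 0.03, and the mean of both gave -0.20 (adjusted p = 0.0292).

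Colec11, a collectin that binds microbial sugars and starts the lectin pathway of complement, had 9.76, 9.91, 10.33, 9.73 and 9.87 in treated livers, against 10.40, 10.46, 10.47, 10.23 and 10.24 in controls. Replicate 3 was once more the treated liver inside the control range. Both of its probe sets passed singly, and the log2 fold change was -0.44 ± 0.11 (SE; adjusted p = 0.0135), with -0.31 against control replicate 4 (adjusted p = 0.506). The sixth gene of the group, Tgfb1, the cytokine that drives matrix synthesis, did not pass: its values were 5.63 to 5.92 with phenobarbital and 5.43 to 6.05 in controls (log2 fold change 0.04, adjusted p = 0.833). The other probe set of Tgfb1 stood higher, at 0.35, and did not pass singly (adjusted p = 0.0694). The mean of both gave 0.20 (adjusted p = 0.0565).

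**Figure D2:**
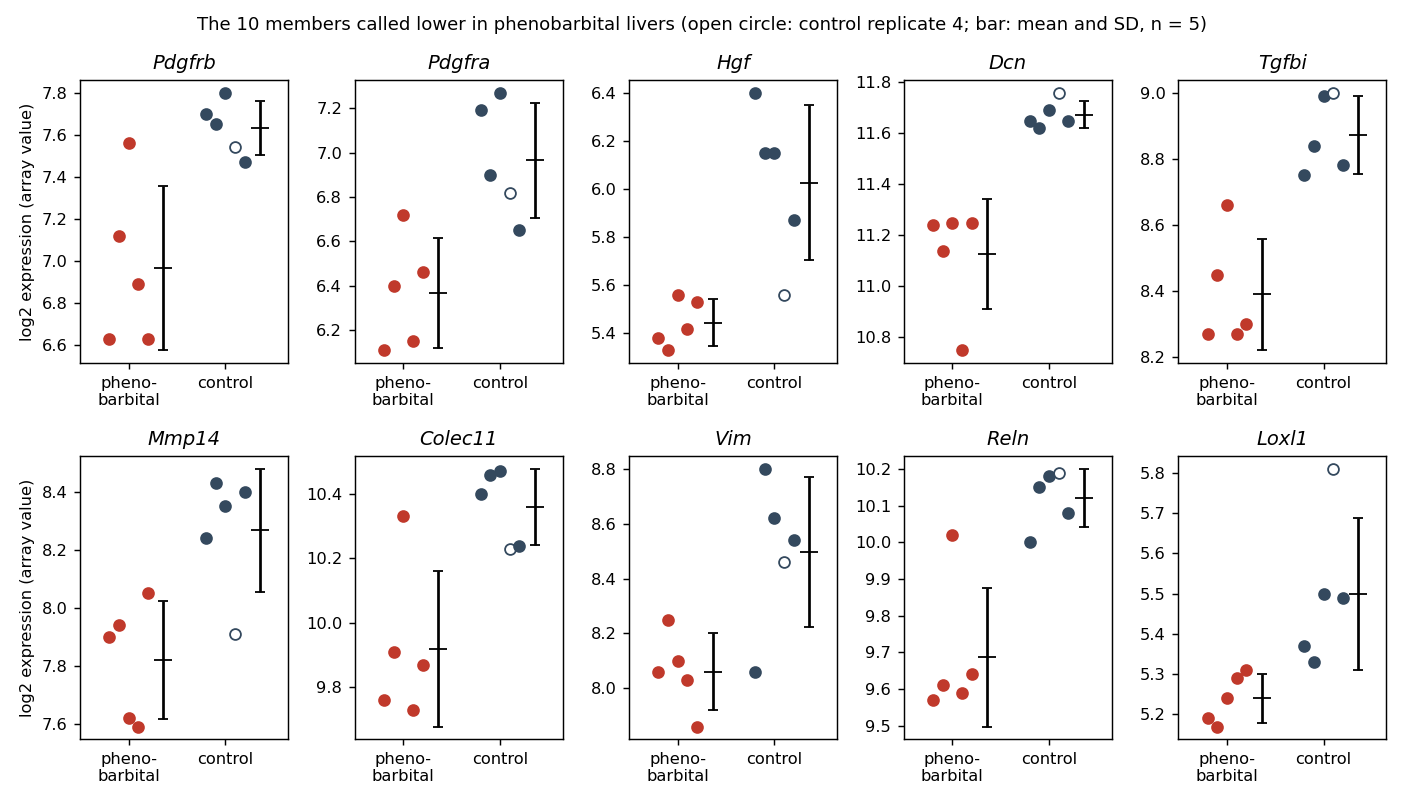
Log2 expression of the 10 genes that fell, with 1 point per liver (phenobarbital left, control right in each panel), a bar for the mean and SD of each group (n = 5), and control replicate 4 as an open circle; each panel has its own axis, which does not start at 0. The 2 groups do not overlap for Dcn, Tgfbi and Loxl1, and in the other 7 genes at least 1 liver of each group reaches the range of the other.

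The letters just before the start sites of 4 of these genes are shown as examples of promoters that differ, and choosing them was not a test. Their log2 fold changes, from the brightest probe sets, were -0.60 to -0.43. That range also holds Hgf (-0.58), Mmp14 (-0.45) and Vim (-0.44), which have windows too. Each line holds the 250 bases before the RefSeq gene start (GRCm38.p6), written 5′ to 3′ on the strand of the gene, and capitals mark GGGCGG, the core of a GC box, found on either strand where it is read. The windows are Reln at chr5:22344706-22344955 (minus strand), Tgfbi at chr13:56609336-56609585 (plus strand), Pdgfra at chr5:75152001-75152250 (plus strand) and Colec11 at chr12:28623331-28623580 (minus strand).
Reln: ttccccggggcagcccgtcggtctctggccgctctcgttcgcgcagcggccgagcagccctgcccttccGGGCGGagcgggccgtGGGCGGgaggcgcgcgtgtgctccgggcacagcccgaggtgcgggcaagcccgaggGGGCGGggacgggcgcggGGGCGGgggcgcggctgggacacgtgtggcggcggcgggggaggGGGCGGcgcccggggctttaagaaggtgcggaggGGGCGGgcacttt
Tgfbi: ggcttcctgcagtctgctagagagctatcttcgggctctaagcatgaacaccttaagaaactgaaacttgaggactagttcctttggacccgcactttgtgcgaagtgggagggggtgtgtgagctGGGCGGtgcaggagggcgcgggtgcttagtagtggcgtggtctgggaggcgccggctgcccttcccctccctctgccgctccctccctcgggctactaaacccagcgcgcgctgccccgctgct
Pdgfra: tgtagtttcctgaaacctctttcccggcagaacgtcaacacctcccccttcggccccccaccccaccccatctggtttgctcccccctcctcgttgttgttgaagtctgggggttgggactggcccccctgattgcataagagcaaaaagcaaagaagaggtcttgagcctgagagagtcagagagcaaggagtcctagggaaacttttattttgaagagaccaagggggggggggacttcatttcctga
Colec11: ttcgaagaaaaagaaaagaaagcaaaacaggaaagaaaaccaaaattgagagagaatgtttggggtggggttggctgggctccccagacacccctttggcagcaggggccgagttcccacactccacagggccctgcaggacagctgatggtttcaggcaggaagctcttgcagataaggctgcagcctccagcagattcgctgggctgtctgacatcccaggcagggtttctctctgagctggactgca
Reln has 6 matches and 80.0% G or C, Tgfbi has 1 match and 62.4% G or C, and the windows of Pdgfra and Colec11, at 54.4% G or C each, have 0. Windows were read for 24 of the 36 genes, 7 of them among those that fell. A chromosome was left out of the windows of the 36 genes but not of the windows over all genes. The 7 genes have 8 windows and the 24 have 26, since some genes have more than 1. GGGCGG was in 3 of the 8 windows and in 15 of the 26 (14 of the 24 genes). It was in 32.7% of 32851 windows of this length over all genes. TATAAA, the TATA box, was in 1 of the 8 windows and 3 of the 26 (12.4% of all windows). AGGTCA, a hexamer that many nuclear receptors bind, was in 0 of the 26 (14.0% of all windows). All 3 were searched on both strands, and no other of the 3 overlaps a marked match in the 4 windows, which hold no TATAAA and no AGGTCA. A match or its absence describes these letters only.

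Matrix glycoproteins and small proteoglycans had 2 falls among 7 genes, with a median log2 fold change of -0.16. Decorin, Dcn, a small leucine-rich proteoglycan that coats collagen fibrils and binds growth factors, had values of 11.24, 11.14, 11.25, 10.75 and 11.25 in the phenobarbital livers, against 11.65, 11.62, 11.69, 11.76 and 11.65 in the control livers. Every treated liver lay below every control, and the controls spread over less than the treated livers did. Its log2 fold change was -0.55 ± 0.09 (SE; adjusted p = 0.00243), the smallest adjusted p among the 35 genes, and -0.63 against control replicate 4. The other probe set of Dcn stood at -0.19 and did not pass singly (adjusted p = 0.155), and the mean of both gave -0.37 (adjusted p = 0.00693).

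Tgfbi, a secreted matrix protein that is induced by transforming growth factor beta and bridges collagen and integrins, gave 8.27, 8.45, 8.66, 8.27 and 8.30 with phenobarbital, against 8.75, 8.84, 8.99, 9.0 and 8.78 in controls. The groups did not overlap, and all 4 of its probe sets passed singly, which held for the whole set of probe sets only in Tgfbi and Colec11 among the 10 genes. Its log2 fold change was -0.48 ± 0.09 (SE; adjusted p = 0.00347), and -0.61 against control replicate 4 (adjusted p = 0.102).

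Lumican, Lum, a proteoglycan of the same family as decorin, lay just outside the threshold. It had 8.39, 8.65, 8.78, 8.29 and 8.54 in treated livers, against 8.98, 8.86, 8.78, 9.12 and 8.58 in controls, with a log2 fold change of -0.33 ± 0.11 (SE; adjusted p = 0.0504). Without phenobarbital replicate 3 it passed (-0.40, adjusted p = 0.0298), as it did without control replicate 5 (-0.41, adjusted p = 0.0241). Treated replicate 3 equalled control replicate 3, and control replicate 5 lay among the treated livers.

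The other 4 genes of the group did not pass. Biglycan, Bgn, also a small proteoglycan, had a log2 fold change of -0.15 (adjusted p = 0.223), with 4 of 5 treated livers below every control, and Ecm1, a secreted protein that binds matrix components, had -0.16 (adjusted p = 0.248). Fibronectin, Fn1, spanned 13.08 to 13.24 in treated livers and 13.14 to 13.26 in controls (-0.03, adjusted p = 0.749), and Sparc, a collagen-binding glycoprotein, 9.23 to 9.32 and 9.10 to 9.41 (0.02, adjusted p = 0.863). The second probe set of Fn1 stood lower, at -0.35 (adjusted p = 0.183), with 7.73 to 8.30 in treated livers and 7.88 to 9.06 in controls, and neither passed.

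None of the 11 collagen genes passed by limma, and at an unadjusted p under 0.05 Col1a2 and Col14a1 were lower and none was higher. Col1a1 and Col1a2 encode the chains of type I collagen, the main fibril of scar. Col1a1 had 5.78, 5.58, 5.76, 5.69 and 5.19 with phenobarbital, against 5.4, 5.34, 5.23, 5.69 and 5.51 in controls (log2 fold change 0.17 ± 0.12 SE, adjusted p = 0.33). Its other probe set stood at 0.22 and did not pass singly (adjusted p = 0.0664), and the mean of both gave 0.19 (adjusted p = 0.0914). Col1a2 had 8.60, 8.52, 8.59, 8.03 and 8.44 with phenobarbital, against 8.66, 8.67, 8.57, 8.93 and 8.61 in controls (-0.25 ± 0.11 SE, adjusted p = 0.118). The 2 chains thus had means on opposite sides of control, neither past the threshold, and the replicates numbered 4 were the lowest treated liver and the highest control for Col1a2.

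Type III collagen, Col3a1, which forms fine reticular fibrils, had 10, 10.08, 10.23, 9.62 and 9.81 in treated livers, against 10.08, 10.18, 9.92, 10.30 and 10.15 in controls. The ranges overlapped over most of their length (-0.18, adjusted p = 0.266). The minor fibrillar chains Col5a1 and Col5a2 stood at -0.00 (adjusted p = 0.988) and -0.16 (adjusted p = 0.424). Of the 3 probe sets of Col5a1, however, 1 passed singly, with 5.62, 5.58, 5.93, 5.86 and 5.72 in treated livers, against 6.04, 6.30, 5.94, 6.15 and 6.04 in controls, where every treated liver lay below every control (-0.35 ± 0.09 SE, adjusted p = 0.0182). The third Col5a1 probe set stood at 0.03 (adjusted p = 0.771). Col4a1 and Col4a2, the chains of basement membrane collagen, were 8.49 to 8.87 and 8.26 to 8.68 in treated livers, against 8.5 to 8.78 and 8.27 to 8.62 in controls, and their log2 fold changes were -0.01 and 0.06 (adjusted p = 0.945 and 0.683).

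The 3 chains of type VI collagen, a beaded filament around cells, had log2 fold changes of -0.06 (Col6a1), -0.15 (Col6a2) and 0.05 (Col6a3), with adjusted p of 0.71, 0.283 and 0.74. Col14a1, a collagen that sits on the surface of fibrils, had 8.74, 8.77, 9.08, 8.47 and 8.54 with phenobarbital, against 8.93, 8.92, 8.91, 8.98 and 9.01 in controls. Here 4 treated livers lay below all controls and replicate 3 above them all, so that the gene missed the threshold with replicate 3 (-0.23, adjusted p = 0.116) and passed without it (-0.32, adjusted p = 0.0168). Of all 11 collagen genes, Col1a1, Col4a2 and Col6a3 were the 3 with a mean above control.

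Crosslinking and turnover of the matrix gave 2 falls. Loxl1, a lysyl oxidase-like enzyme needed for elastic fibres, had 5.19, 5.17, 5.24, 5.29 and 5.31 in the phenobarbital livers, against 5.37, 5.33, 5.5, 5.81 and 5.49 in the control livers. The groups did not overlap, as for 3 of the 35 genes (Dcn, Tgfbi and Loxl1; 12.9% of all genes), but they came within 0.02 of each other. The log2 fold change was -0.26 ± 0.09 (SE; adjusted p = 0.0488), just inside the threshold, and its other probe set stood at 0.06. Against control replicate 4, the highest control, it was -0.57 (adjusted p = 0.0304). Leaving out any treated liver, or control replicate 3, 4 or 5, ended the call, with fold changes of -0.28 to -0.18 and adjusted p of 0.0578 to 0.106.

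Lox, the founding lysyl oxidase, which crosslinks collagen and elastin, was 5.10 to 5.22 with phenobarbital and 4.73 to 5.34 in controls (0.13, adjusted p = 0.361). Loxl2, another enzyme of the family, shares its probe sets with Gm21451 and so has no value of its own. The brighter shared probe set gave 5.60, 5.26, 5.52, 5.01 and 5.25 in treated livers, against 5.78, 5.69, 5.60, 5.68 and 5.86 in controls. All but 1 of the treated values, 5.60 of replicate 1, lay below every control (-0.39 ± 0.10 SE, adjusted p = 0.0222 over all probe sets tested singly), and the other shared probe set stood at -0.02 (adjusted p = 0.85).

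Mmp14, a membrane-bound metalloprotease that cuts collagen and activates Mmp2, had 7.90, 7.94, 7.62, 7.59 and 8.05 with phenobarbital, against 8.24, 8.43, 8.35, 7.91 and 8.40 in controls. Control replicate 4 lay among the treated livers, and the other 4 controls above them all. The log2 fold change was -0.45 ± 0.11 (SE; adjusted p = 0.0176), against -0.09 (adjusted p = 0.861) relative to control replicate 4. Its other 2 probe sets did not pass, 1 of them at 0.16, and the mean of the 3 gave -0.12 (adjusted p = 0.208).

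Mmp2, the gelatinase that Mmp14 activates, was 6.41 to 6.76 with phenobarbital and 6.58 to 6.81 in controls (-0.10, adjusted p = 0.394). Among the tissue inhibitors of these proteases, Timp1, the one most tied to fibrosis, was 4.69 to 5.00 with phenobarbital and 4.57 to 4.83 in controls (0.07, adjusted p = 0.584). Timp2 stood at -0.18 (adjusted p = 0.288) on its brightest probe set. Of its 6 probe sets 1 passed singly, with 6.69, 6.63, 6.71, 6.62 and 6.76 in treated livers, against 7.30, 6.82, 7.02, 7.10 and 7.19 in controls and no overlap (-0.40 ± 0.09 SE, adjusted p = 0.0084), and the other 5 ran from -0.20 to 0.11. Timp3, which binds to matrix, had 7.55, 7.16, 7.32, 6.91 and 7.41 with phenobarbital, against 7.5, 7.55, 7.42, 7.51 and 7.61 in controls, where 4 treated livers lay below all controls (-0.25, adjusted p = 0.105). Without phenobarbital replicate 1, the treated liver with the highest value, Timp3 passed (-0.32, adjusted p = 0.042).

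Of the 4 cytoskeletal genes, 1 fell and 0 rose (limma; 1 lower and 1 higher at an unadjusted p under 0.05). Vimentin, Vim, the intermediate filament of mesenchymal cells, had 8.06, 8.25, 8.10, 8.03 and 7.86 in treated livers, against 8.06, 8.80, 8.62, 8.46 and 8.54 in controls. Control replicate 1 lay among the treated livers and the other 4 controls above them all. The log2 fold change was -0.44 ± 0.12 (SE; adjusted p = 0.023), and -0.40 against control replicate 4 (adjusted p = 0.455). The call ended without phenobarbital replicate 5 (-0.39, adjusted p = 0.0539), control replicate 2 (-0.36, adjusted p = 0.0569) or control replicate 3 (-0.41, adjusted p = 0.057), and the mean of its 3 probe sets gave -0.32 (adjusted p = 0.0561). The only one of the 3 that matches a single transcript stood at -0.04 (adjusted p = 0.846).

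Alpha smooth muscle actin, Acta2, the usual sign of a stellate cell turned myofibroblast, had 7.84, 8.26, 7.81, 7.72 and 8.03 with phenobarbital, against 7.76, 7.41, 7.60, 8.44 and 7.85 in controls. The highest of all 10 livers was control replicate 4, and the 3 lowest included 2 controls (0.12 ± 0.16 SE, adjusted p = 0.635; -0.51 against control replicate 4). Tagln, an actin-binding protein of contractile cells, had 8.10, 8.30, 7.97, 8.03 and 7.91 with phenobarbital, against 7.77, 7.61, 7.25, 8.19 and 7.56 in controls. All treated livers lay above 4 of the controls and only treated replicate 2 above control replicate 4. With that control its log2 fold change was 0.39 ± 0.14 (SE; adjusted p = 0.0689), without it 0.51 (adjusted p = 0.00591), and against it alone -0.13 (adjusted p = 0.805). Desmin, Des, the muscle-type filament that marks rodent stellate cells, was 6.96 to 7.05 in treated livers and 6.89 to 7.17 in controls (-0.01, adjusted p = 0.908).

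**Figure D3:**
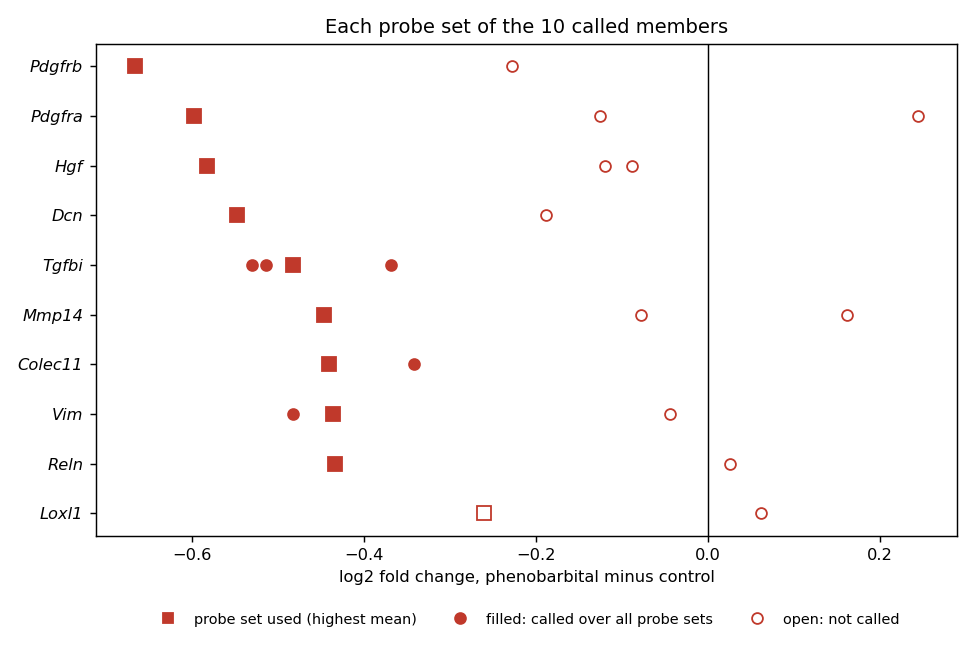
Log2 fold change (phenobarbital minus control, n = 5 each) of every probe set annotated solely to each of the 10 genes that fell. Squares are the probe set with the highest mean, which stands for the gene, circles the others, and filled symbols passed at an adjusted p under 0.05 over all probe sets; every probe set is filled for Tgfbi and Colec11 alone, and the Loxl1 square is open because it passed over genes but not over probe sets.

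Animals differed in the genes as a set. The mean log2 value over the 35 genes was 7.77, 7.89, 7.96, 7.73 and 7.76 in the phenobarbital livers (7.82 ± 0.10, SD, n = 5), against 7.98, 7.98, 7.94, 8.11 and 7.97 in the control livers (8.0 ± 0.07, SD, n = 5). Treated replicate 3 was the highest of its group and lay above control replicate 3, and control replicate 4 was the highest of all. Gene by gene, replicate 3 was the highest treated liver for 20 of the 35 genes and control replicate 4 the highest control for 19, ties included. Over the 25 genes that did not pass, the mean was 7.79 ± 0.09 (SD, n = 5) with phenobarbital and 7.84 ± 0.11 (SD, n = 5) in controls. These means are descriptions, since the 10 and the 25 were divided by the outcome.

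**Figure D4:**
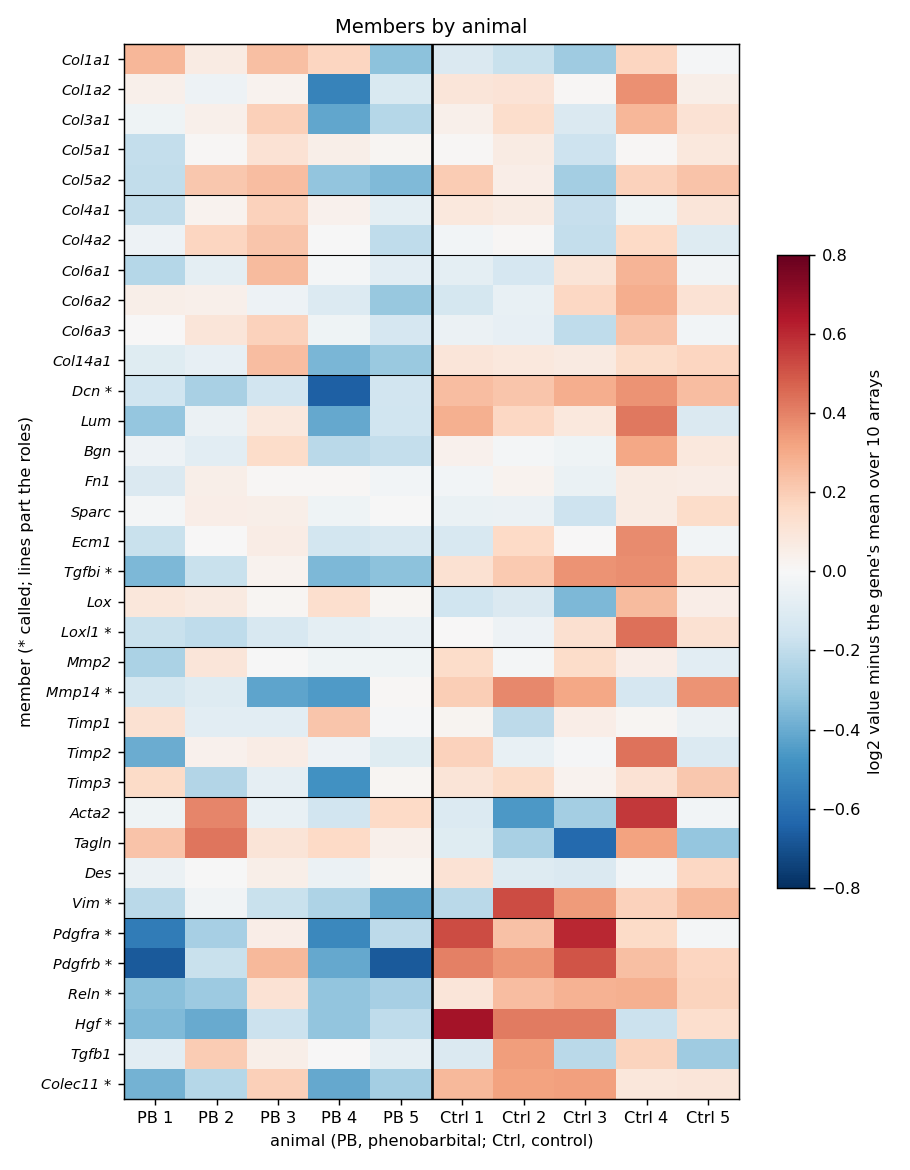
Log2 value of each of the 35 genes (rows, parted by role, an asterisk marking the 10 that fell) in each liver (columns, 5 phenobarbital left, 5 control right), as the difference from the gene's mean over the 10 arrays, blue below and red above it. Control replicate 4 is red in most rows, phenobarbital replicate 3 is the reddest of the treated livers, and the rows with an asterisk are mostly blue on the left and red on the right.

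Genes around these in the same pathways moved in both directions. The share that fell, beside 11.3% of all genes, was 5.88% for collagen maturation and secretion and 13.6% for basement membrane and microfibril genes. It was 9.09% for other matrix proteases and inhibitors, 16.7% for transforming and platelet-derived growth factor signalling and 28.6% for matrix receptors. Rises are counted list by list, and 9.02% of all genes rose. Of 17 measured genes for collagen maturation and secretion, 4 rose and 1 fell. The 4 came down to 1 without phenobarbital replicate 2, 4 or 5 or control replicate 1, 2 or 3 and to 2 without control replicate 5, and were 6 without control replicate 4. P4ha1, a catalytic subunit of collagen prolyl hydroxylase, rose by 0.76 on the log2 scale (adjusted p = 0.00815), and P3h1, a prolyl 3-hydroxylase, by 0.36 (adjusted p = 0.035), a call that ended under the same 6 omissions that left 1 rise (adjusted p = 0.061 to 0.0812). Pcolce, which speeds the trimming of procollagen, fell by 0.38 (adjusted p = 0.0123), but by 0.24 with the mean of its probe sets (adjusted p = 0.0662). Of 22 basement membrane and microfibril genes, 2 rose and 3 fell: Col15a1, a basement membrane collagen, rose by 0.51 (adjusted p = 0.00934), Lama5, a laminin chain, rose by 0.39 (adjusted p = 0.0109), and Fbln5, an elastic fibre protein, fell by 0.47 (adjusted p = 0.0076; -0.13 with the mean of its probe sets, adjusted p = 0.274). The 3 falls came down to 1 without phenobarbital replicate 1, 2 or 4 or control replicate 3, were 2 without phenobarbital replicate 5 or control replicate 2, 4 or 5, and were 5 without phenobarbital replicate 3; the 2 rises were 4 without control replicate 4.

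Among 22 other matrix proteases and inhibitors, 3 rose and 2 fell, and leaving out 1 animal gave 2 to 5 rises (5 without control replicate 4) and 2 to 3 falls. The metalloprotease Mmp19 rose by 0.59 (adjusted p = 0.00405), while the membrane sheddases Adam9 and Adam10 each fell by 0.36 (adjusted p = 0.00346 and 0.0114). Of 24 genes of transforming growth factor beta and platelet-derived growth factor signalling, 3 rose and 4 fell, among them Thbs1, which activates latent transforming growth factor beta, higher by 0.44 (adjusted p = 0.0316), and Skil, an inhibitor of Smad proteins, which fell by 0.47 (adjusted p = 0.0403). Neither call was firm: Thbs1 passed only without phenobarbital replicate 5 or control replicate 4 or 5 among the 10 omissions (adjusted p = 0.0502 to 0.075 in the other 7), and Skil only without phenobarbital replicate 1 or control replicate 4 (0.0513 to 0.0903 in the other 8). Leaving out 1 animal gave 1 to 3 rises in this list, 1 of them in 6 of 10 fits, and 2 to 4 falls, 2 of them in 6 of 10 fits. Of 21 measured matrix receptors, 0 rose and 6 fell (limma; 3 higher and 8 lower at an unadjusted p under 0.05). Leaving out 1 animal gave 4 to 7 falls (4 without phenobarbital replicate 5 or control replicate 2 or 3). They included the integrin chain Itgb8 (-0.48, adjusted p = 0.0407; 0.01 with the array set as a block), whose mean levels of 3.48 in treated livers and 3.97 in controls lie below the lower quartile of the arrays and whose call ended in 7 of 10 omissions (adjusted p = 0.0663 to 0.101), all but those of phenobarbital replicate 1 and control replicates 4 and 5. The others named were the heparan sulfate proteoglycan Sdc4 (-0.40, adjusted p = 0.0044) and the integrin chain Itgav (-0.36, adjusted p = 0.00972; -0.06 with the mean of its probe sets, adjusted p = 0.361). With the array set as a block, 0 genes of any of these 5 lists passed.

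Markers of cell types were read beside these genes. The tissue carries its label: 11 hepatocyte markers had a mean log2 level of 14.10 to 14.17 in treated livers and 14.14 to 14.22 in controls, and 9 kidney markers one of 5.17 to 5.32 and 5.03 to 5.66. Of 18 measured stellate cell markers outside the 36 genes, 8 fell (44.4%, beside 11.3% of all genes) and 0 rose by limma. At an unadjusted p under 0.05, 9 were lower and 0 higher. The markers that did not pass had log2 fold changes from -0.17 to 0.13, so some had means above control. Lrat, which esterifies vitamin A for storage, fell by 0.86 (adjusted p = 0.011), Hand2, a transcription factor of quiescent stellate cells, by 0.85 (adjusted p = 0.00256; by 0.19 with the mean of its probe sets, adjusted p = 0.101), and Bambi, a decoy receptor of the transforming growth factor beta family, by 0.81 (adjusted p = 0.000296). The summed linear level of the 18 was 5742 to 6876 with phenobarbital and 6247 to 7536 in controls, overlapping ranges. A linear sum weighs its brightest genes most. The brightest of the 18 had mean log2 levels of 11.29 with phenobarbital and 11.23 in controls and did not pass (limma adjusted p = 0.78). With the array set as a block 0 of the 18 passed, and their median log2 fold change was -0.18, beside -0.14 without it.

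Of 14 sinusoidal endothelial markers 7 fell (50%, beside 11.3% of all genes) and 1 rose. Leaving out 1 animal gave 4 to 7 falls (4 without phenobarbital replicate 4 or control replicate 1 or 2). Among them were Bmp2, an endothelial signal for iron balance, which fell by 0.78 (adjusted p = 0.00737), Fcgr2b, an antibody receptor, which fell by 0.57 (adjusted p = 0.00281) but stood at 0.17 with single-transcript probe sets (adjusted p = 0.189) and at -0.19 with the mean of its probe sets (adjusted p = 0.134), and Tie1, an endothelial receptor, which rose by 0.64 (adjusted p = 0.00483). Their summed level was 4414 to 5649 in treated livers and 5814 to 7406 in controls, with no overlap. That sum weighs bright genes most, among them Fcgr2b (mean log2 level 9.53 in treated livers and 10.10 in controls). With the array set as a block, the median log2 fold change of these 14 markers was -0.12, beside -0.19 without it. Kupffer cells, the liver macrophages, had 2 of 14 markers lower (14.3%, near the 11.3% of all genes), Slc40a1, the iron exporter, at -0.46 and Timd4, a receptor for dying cells, at -0.24. Timd4 did not pass without phenobarbital replicate 1, 4 or 5 or control replicate 2, 3 or 5 (adjusted p = 0.0507 to 0.0845), and summed levels overlapped, at 7526 to 9580 with phenobarbital and 8690 to 10633 in controls. The part of these other cell types in the falls of stellate genes was not tested.

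Of 14 portal fibroblast markers and 10 smooth muscle markers, 0 passed in either direction by limma. The smooth muscle list includes Des, which is also among the genes followed here. At an unadjusted p under 0.05, 1 portal fibroblast marker was higher and 2 were lower, and 0 smooth muscle markers were either. Without control replicate 4, 3 portal fibroblast and 2 smooth muscle markers rose, and without control replicate 1, 1 portal fibroblast marker fell. Summed levels overlapped for both, at 852 to 945 with phenobarbital and 856 to 1027 in controls for portal fibroblasts, and 1489 to 1818 and 1449 to 1721 for smooth muscle. Of 11 leukocyte markers, 1 rose (Ccr2, a monocyte chemokine receptor, by 0.37; 0.16 with the mean of its probe sets, adjusted p = 0.0548), of 8 cholangiocyte markers 1 rose (Epcam, an adhesion protein of bile duct cells, by 0.54; 0.18 with the mean of its probe sets, adjusted p = 0.0922), and of 11 hepatocyte markers 1 fell (Apob, the lipoprotein protein, at -0.20). Apob passed only without phenobarbital replicate 1 or 5 or control replicate 4 among the 10 omissions (adjusted p = 0.0545 to 0.101 in the other 7). Summed hepatocyte markers were 218557 to 224553 with phenobarbital and 225136 to 231801 in controls, also without overlap. The upper quartile of the array values was likewise lower on every treated array (7.30 to 7.36, against 7.39 to 7.46 in controls). Its part in this sum was not tested. No marker can be called absent from log2 array values, but 1 smooth muscle, 2 leukocyte, 1 cholangiocyte and 2 kidney markers lay below the lower quartile of their arrays.

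**Figure D5:**
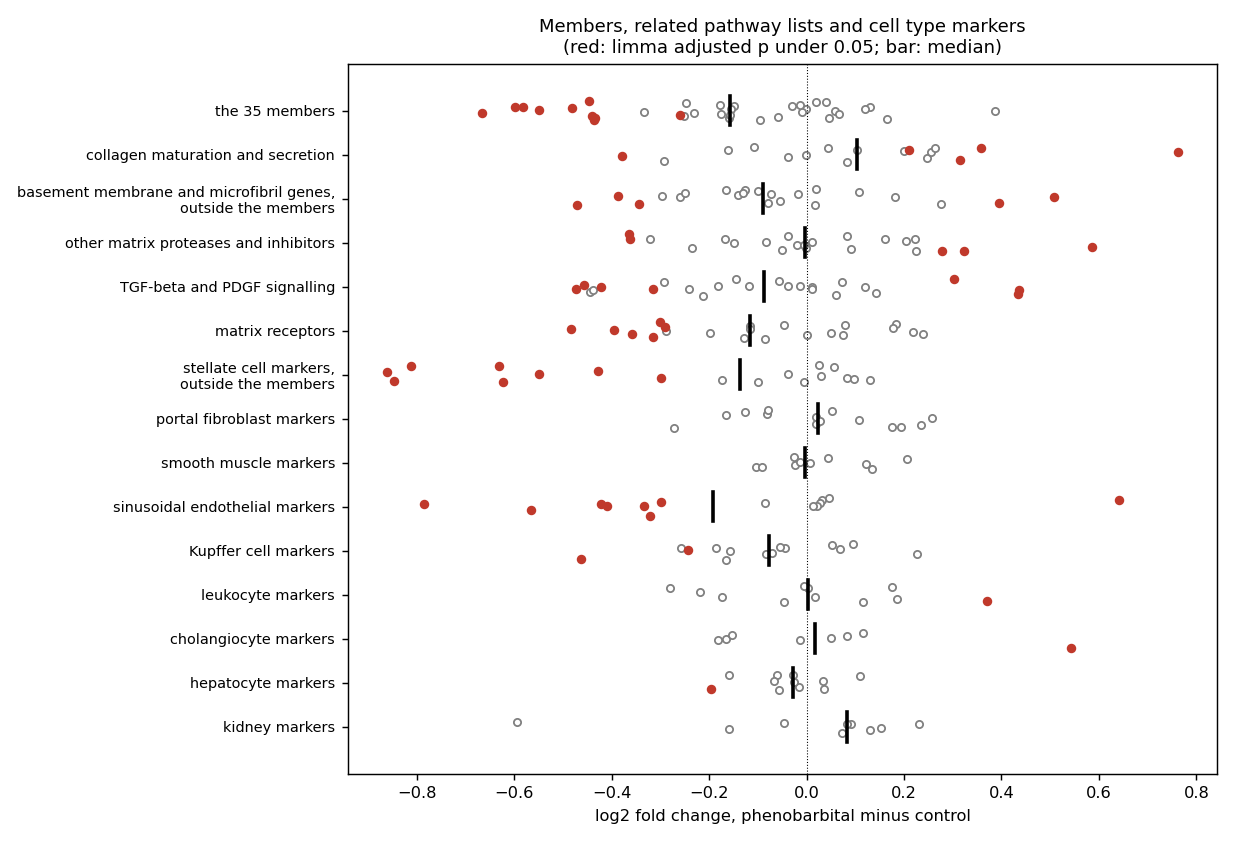
Log2 fold change (phenobarbital minus control, n = 5 each) of the 35 genes and of every measured gene in the pathway and marker lists, 1 point per gene, red where the adjusted p is under 0.05, with each list's median as a bar. Stellate markers outside the 36 genes have 8 red points, all below 0, sinusoidal endothelial markers 7 below and 1 above, and portal fibroblast and smooth muscle markers none.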

How the data were processed

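Liver RNA of 10 mice was hybridised to 1 Affymetrix array each. The authors deposited log2 values for 45101 probe sets, between 2.34 and 15.13, with array medians of 5.42 to 5.50; these were used unchanged, and their scale was read from this range. GCOS is named in the submitters' processing notes; how probes were summarised and normalised is not given in the sources used. The number of arrays limits the precision. Symbols came from the platform annotation: 34945 probe sets had 1 symbol, 932 several and 9160 were not listed. The RefSeq table of GRCm38.p6 changed 0 of 34741 symbols matched by Entrez ID. Each of 18193 genes was read from its probe set with the highest mean. Groups were compared with limma 3.58.1 in R 4.3.3 (lmFit, eBayes, two-sided, Benjamini-Hochberg over all genes, adjusted p under 0.05). Members and lists were chosen with earlier results of these data known. All 36 members were eligible for naming, plus up to 3 called genes per list by size of change. On simulated data of 18193 genes the fit recovered 99.6% of log2 changes of 2, 97.6% of 1 and 76.6% of 0.5, with 10 false calls a run. The simulated noise was independent between genes and held no array sets, so these figures do not cover errors from such sets. Alternatives were quantile normalisation, median centring, brighter genes, mean of probe sets, single-transcript probe sets, trend and robust variance, the spike-in array set as a block, the spike-in mean as a covariate, the replicate block and leaving out each animal.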

Additional observations from a re-analysis of the deposited data

Results flagged for a closer look

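In 122 groups of 5 livers, covering the 35 genes and the other genes named, 7 groups held an animal far from the other 4 (a gap above 0.71 of the whole range), where chance gives about 1 in 20. Among the 35 genes there were 4. Col1a2 was 8.03 in phenobarbital replicate 4, against 8.44 to 8.60 in the other treated livers, and 8.93 in control replicate 4, against 8.57 to 8.67 in the other controls. Dcn was 10.75 in phenobarbital replicate 4, below the 11.14 to 11.25 of the other treated livers. Reln was 10.02 in phenobarbital replicate 3, above the 9.57 to 9.64 of the others. Outside the 35 genes, P4ha1 was 8.91 in phenobarbital replicate 1 (others 8.11 to 8.30), Col15a1 was 5.70 in control replicate 5 (others 5.24 to 5.37), and Fcgr2b was 10.41 in control replicate 2 (others 9.94 to 10.07).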

How the results depend on the processing

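The 10 falls rest on 5 animals a group and, with the spike-in array set as a block, on control replicate 4 alone. Over all genes 143 passed with that block and 129 with the spike-in mean as a covariate, against 3692 without, and 1 of the 35 members fell under each (Loxl1), with a median over the 35 of -0.27 with the block. Leaving out 1 animal gave 2431 to 4610 genes, 8 to 11 members lower and 0 to 1 higher, the 1 being Tagln without control replicate 4. Of the 10, 8 passed under each such omission, and Loxl1 and Vim did not. Quantile normalisation gave 8 members lower and 1 higher (Tagln), median centring 9 lower. The fit of brighter genes, those above the median level, held 28 members. It gave 9 lower, 8 of the 10 and Lum, while Loxl1 and Hgf were too dim to enter it. The mean of probe sets gave 7 lower, 6 of the 10 and Lum, with Loxl1, Mmp14, Vim and Pdgfra lost; single-transcript probe sets gave 9, 8 of the 10 and Lum, with Vim and Pdgfrb lost. The share of higher calls over all genes was 44.4% as deposited, 60.0% after quantile normalisation and 58.8% after median centring, with a median log2 fold change of 0.008, 0.035 and 0.042. Itgb8 turned to 0.012 with the spike-in set as a block and to 0.11 with the covariate, and Fcgr2b to 0.17 with probe sets that match a single transcript; the cause was not tested. Same-numbered animals had correlations of deviations of -0.02, 0.02, -0.00, 0.10 and 0.12, and 4 of 10 animals correlated best with their own number, so the numbers were not taken to pair them. The replicate block gave 3664 genes and the 10 members lower, 0 higher. Pseudocounts do not apply to log2 values.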
